A study of Mus musculus with 6 samples.

Results

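The genes described here encode the interleukin-12 family: the subunits Il12a, Il12b, Il23a, Il27 and Ebi3 and the receptor chains Il12rb1, Il12rb2, Il27ra and Il6st. They were taken by symbol from the count table, where each of the 9 matched 1 Ensembl mouse gene among 26519 rows, and all 9 passed the filter on low counts. The libraries came from dendritic cells isolated from MC38 tumours, grown from a mouse colon carcinoma line, on day 10 after inoculation. There were 3 libraries from wild-type hosts and 3 from MAVS knockout hosts. Both groups carried the same tumour line and differed, per the labels, in host genotype alone. The labelled genotype is that of the host and not of the tumour. The labels give neither the knockout allele, nor the strain and age of the mice, nor the sort, nor any pooling. They also do not tie replicates to separate animals, so each p-value reflects only how far these libraries spread, which may be technical.

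Interleukin-12 cytokines are heterodimers that antigen-presenting cells secrete to instruct T cells and natural killer cells. Interleukin-12 joins p35 (Il12a) to p40 (Il12b), interleukin-23 joins p19 (Il23a) to the same p40, interleukin-27 joins p28 (Il27) to EBI3 (Ebi3), and interleukin-35 joins p35 to EBI3. Their receptors share chains too: IL-12Rβ1 (Il12rb1) serves interleukin-12 and interleukin-23, IL-12Rβ2 (Il12rb2) completes the interleukin-12 receptor, and the interleukin-27 receptor pairs IL-27Rα (Il27ra) with gp130 (Il6st). By its title the series concerns MAVS, the mitochondrial adaptor of the RIG-I-like RNA sensors, as a restraint on interleukin-12 in dendritic cells.

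The windows before the annotated starts of the interleukin-12 subunits are printed here because Il12a, for which RefSeq lists 2 starts, rose in knockout hosts and Il12b, its partner, showed no detectable change. Each holds 250 bases on the plus strand of GRCm38.p6, from RefSeq, with CpG dinucleotides in capitals.
Il12a, upstream start, chr3:68690394-68690643: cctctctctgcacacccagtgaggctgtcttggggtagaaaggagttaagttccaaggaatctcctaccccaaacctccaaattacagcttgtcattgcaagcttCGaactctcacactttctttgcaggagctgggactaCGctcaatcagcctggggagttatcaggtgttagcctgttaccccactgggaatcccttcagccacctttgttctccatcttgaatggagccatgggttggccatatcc
Il12a, downstream start, chr3:68691174-68691423: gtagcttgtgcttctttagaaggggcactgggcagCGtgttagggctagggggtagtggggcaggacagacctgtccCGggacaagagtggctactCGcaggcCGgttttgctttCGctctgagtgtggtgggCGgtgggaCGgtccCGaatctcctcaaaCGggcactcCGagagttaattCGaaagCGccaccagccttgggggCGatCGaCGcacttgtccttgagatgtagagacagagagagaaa
Il12b, chr11:44399813-44400062: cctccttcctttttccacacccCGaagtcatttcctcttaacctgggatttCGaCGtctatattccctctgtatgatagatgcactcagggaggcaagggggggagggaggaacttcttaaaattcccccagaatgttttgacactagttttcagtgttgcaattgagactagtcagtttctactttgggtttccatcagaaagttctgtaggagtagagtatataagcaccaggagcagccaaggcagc
The window of the upstream Il12a start held 2 CpG and that of the downstream start 15, against 3 before Il12b and a median of 6 over all 32851 windows in the table. The counts are per gene and do not say which Il12a start was used. RefSeq windows matched 5 of the 9 genes: Il12a, Il12b, Ebi3, Il12rb2 and Il6st.

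Motifs of factors known to act at these genes were searched on both strands. They were the NF-kB consensus, the interferon-stimulated response element, the AP-1 motif TGANTCA, the STAT motif TTCNNNGAA and the C/EBP motif TTNNGNAA. Among all windows of this length, 7.25%, 2.98%, 6.75%, 7.02% and 36.8% held them, in that order. None of the 5 motifs had a match in the windows of Il12a, Il12b or Il6st searched here, which says only that those letters are not in these stretches. The Ebi3 window had 1 match to the NF-kB consensus, starting 44 bases before the annotated start and shown in capitals.
Ebi3, chr17:55952373-55952622, plus strand: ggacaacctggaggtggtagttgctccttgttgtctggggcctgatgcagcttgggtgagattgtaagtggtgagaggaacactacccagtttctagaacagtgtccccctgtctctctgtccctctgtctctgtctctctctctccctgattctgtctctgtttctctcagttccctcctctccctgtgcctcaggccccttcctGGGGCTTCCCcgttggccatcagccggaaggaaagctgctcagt
The Il12rb2 window had 1 match to the STAT motif, 123 bases before its start.

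Mavs was measured first, as a check on the labels. It had 33.9, 39.7 and 39.7 CPM (read counts scaled to TMM library sizes) in wild-type replicates 1 to 3 and 8.99, 12.8 and 9.45 CPM in knockout replicates 1 to 3. The groups did not overlap, and transcripts were still counted in each knockout library. Library totals were 14466640 to 20851733 counts, and mitochondrial transcripts took 0.357% to 0.499% of them. Summed markers were set beside the label of dendritic cells, and they do not give the share of each cell type. Those of type 1 conventional dendritic cells (cDC1, 11 genes) summed to 885 to 1468 CPM in the wild-type group and to 940 to 1050 CPM in the knockout group. Naaa and Irf8 carried most of that sum, and the other 9 genes came to 161 to 267 CPM in wild-type hosts and, without overlap, to 72.0 to 99.5 CPM in knockout hosts. Of the 11 genes 10 had a negative log2 fold change and 5 fell, where 1.05% of all tested genes fell. Among those that fell was Xcr1, the chemokine receptor that defines cDC1 (35.1 to 7.79 CPM, edgeR adjusted p = 0.00994). The list was not uniform. Clec9a, another of its markers, overlapped between groups (7.49 to 7.15 CPM, log2 fold change -0.07, edgeR adjusted p = 0.939), and Irf8 had a positive log2 fold change (0.21). Those of macrophages (10 genes) summed to 26320 to 31550 and 27960 to 35490 CPM, mostly Lyz2. Without Lyz2 they summed to 6953 to 7964 and 8206 to 8802 CPM, which did not overlap, and no gene of either list was at 0 throughout a group. In both groups these macrophage sums were above those of the whole cDC1 list. Transcripts of the macrophage list were thus abundant in libraries labelled as dendritic cells. In bulk samples fewer cells of a type and less RNA per cell cannot be told apart.

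Among the subunits Il12a and Il27 rose in the libraries from MAVS knockout hosts, while Il12b, Ebi3 and Il23a did not pass the test. The Il12a call rests on wild-type counts of 5 to 12. It was lost with limma-voom and in most fits that left out a library. Among the receptor chains Il12rb1, Il12rb2 and Il6st were higher in every knockout library than in any wild-type library, without passing over all genes, and Il27ra varied within the wild-type group. In all, 2 of the 9 genes passed (Benjamini-Hochberg adjusted p below 0.05, quasi-likelihood test of edgeR), both higher, where 1.76% of 12580 tested genes passed as higher and 2.81% in either direction. Over all genes 222 passed as higher and 132 as lower, a split that became 102 and 341 when library size alone was used for scaling, which moved the median of all genes by -0.17 on the log2 scale. The groups did not overlap for 5 of the 9, all 5 higher in knockout hosts, where 11.2% of tested genes had such a separation upwards and 21.8% in either direction. The median log2 fold change of the 9 genes was 0.34, against -0.0022 over all tested genes. The 9 genes lie on 8 chromosomes, none of them chromosome 2, which holds Mavs.

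**Figure D1:**
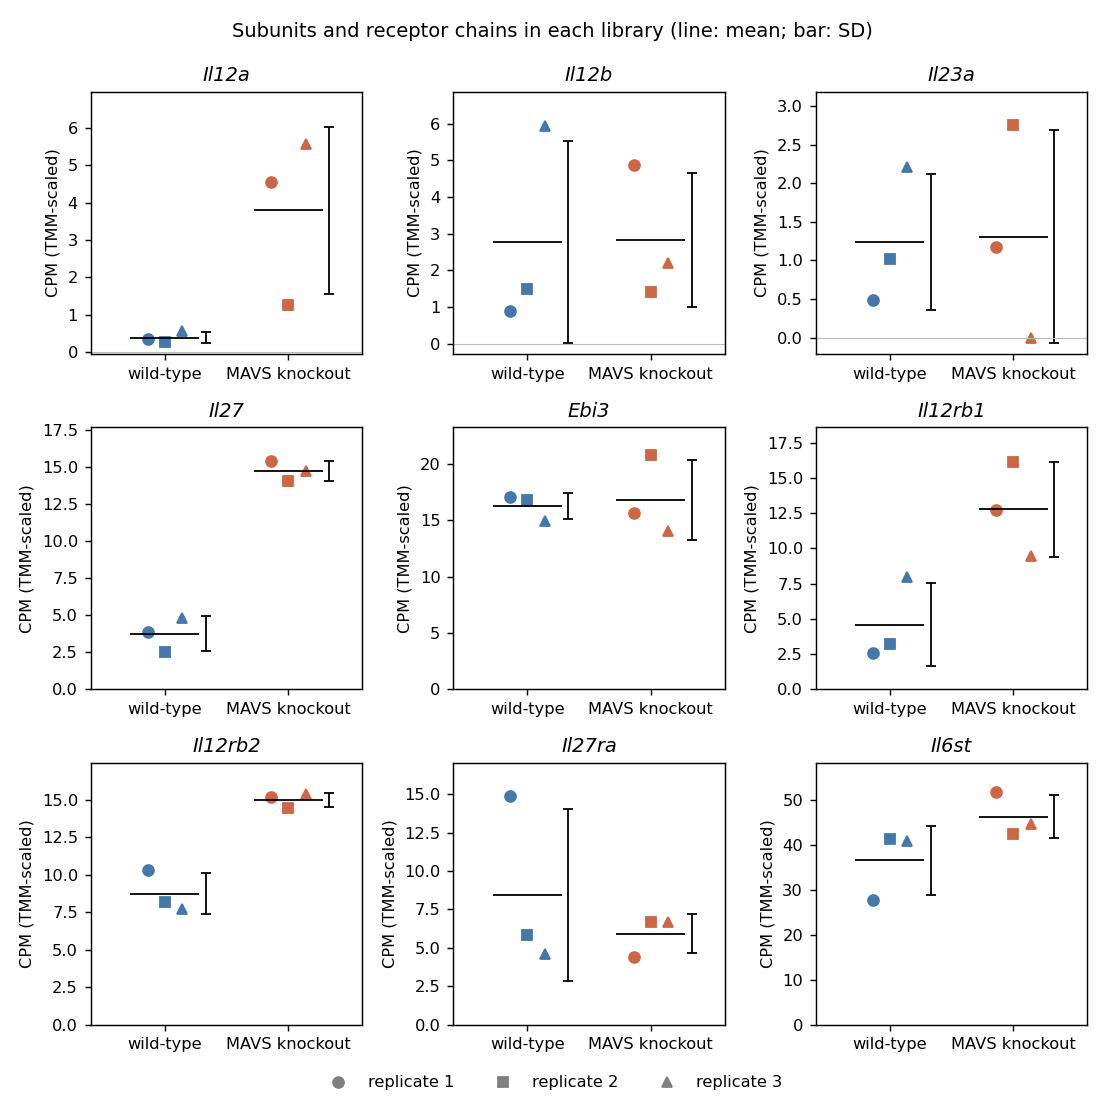
TMM-scaled CPM (vertical axes, each including 0) of the 9 genes in 3 wild-type and 3 MAVS knockout libraries, with symbols for the replicate numbers, a line at the mean and a bar for the SD. The groups are apart for Il12a, Il27, Il12rb1, Il12rb2 and Il6st, and wild-type replicate 3 is the highest wild-type library for Il12a, Il12b, Il23a, Il27 and Il12rb1.

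Il12a (ENSMUSG00000027776, chromosome 3, 68690644 to 68698547 in mm10, plus strand) encodes p35, the chain that distinguishes interleukin-12 from interleukin-23 and is also part of interleukin-35. Its wild-type libraries held 7, 5 and 12 counts, or 0.345, 0.267 and 0.553 CPM. The knockout libraries held 81, 19 and 76 counts, or 4.55, 1.27 and 5.57 CPM. Every knockout library was above every wild-type library, but replicate 2 of the knockout group was well below the other knockout libraries. The fitted rise was 9.55-fold, with a 95% interval from 3.57 to 25.6 (log2 fold change 3.26, SE 0.64, edgeR adjusted p = 0.0303), which ranked 175 of 12580 by p. The coefficient of variation was 38.1% in wild-type, close to the 35.4% that counting alone gives at such counts, and 59.1% in knockout libraries, where counting alone gives 13.1%. The call was lost with limma-voom (3.01, adjusted p = 0.118). It was also lost without any 1 of the wild-type replicates 1, 2 and 3 or the knockout replicates 1 and 3 (adjusted p = 0.0765, 0.081, 0.0553, 0.0989 and 0.136), and was kept without knockout replicate 2 (3.67, adjusted p = 0.0327).

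Il12b (ENSMUSG00000004296, chromosome 11, 44400063 to 44414033, plus strand) encodes p40, the chain shared by interleukin-12 and interleukin-23. It had 0.887, 1.49 and 5.94 CPM in wild-type and 4.89, 1.41 and 2.20 CPM in knockout replicates 1 to 3. One library in each group stood high, wild-type replicate 3 and knockout replicate 1, and the groups overlapped over most of their range. The fold was 1.02 with a 95% interval from 0.354 to 2.95, so changes inside that interval were not excluded. The sign turned with library size alone (log2 fold change -0.12). The coefficient of variation was 99.5% in wild-type and 64.4% in knockout libraries, where counting alone gives 13.1% and 14.7%. Without wild-type replicate 3 the log2 fold change was 1.26, and without knockout replicate 1 it was -0.63, and neither passed.

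Il23a (ENSMUSG00000025383, chromosome 10, 128296139 to 128298752, minus strand) encodes p19, which makes interleukin-23 with p40. Its counts were 10, 19 and 48 in wild-type and 21, 41 and 0 in knockout replicates 1 to 3, or 0.493, 1.01 and 2.21 CPM against 1.18, 2.75 and 0 CPM. The 0 in knockout replicate 3 allows up to 0.22 CPM (3 counts, counting error only), below the lowest wild-type library. The groups overlapped, and the log2 fold change was 0.08 with a 95% interval from -2.11 to 2.27 (edgeR adjusted p = 0.983). Changes in either direction inside that interval were not excluded.

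Il27 (ENSMUSG00000044701, chromosome 7, 126589010 to 126594941, minus strand) encodes p28, the chain that distinguishes interleukin-27. It stood at 3.89, 2.51 and 4.84 CPM in wild-type and 15.4, 14.02 and 14.7 CPM in knockout replicates 1 to 3. The knockout libraries lay close together (coefficient of variation 4.67%, against 31.3% in wild-type) and each was far above the wild-type range. The fitted rise was 3.91-fold with a 95% interval from 2.60 to 5.88 (edgeR adjusted p = 0.0107), rank 21 of 12580 by p. It passed in each fit that left out 1 library, with log2 fold changes from 1.74 to 2.20 and adjusted p from 0.00847 to 0.0482. Il27 shares 103 exonic bases with Apobr on the opposite strand, and reads there could fall to either gene. Apobr had 46.1 ± 4.42 and 50.9 ± 7.38 CPM (SD, n = 3 each) and a log2 fold change of 0.14 (SE 0.14).

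Ebi3 (ENSMUSG00000003206, chromosome 17, 55952640 to 55957022, plus strand) encodes the partner of p28 in interleukin-27 and of p35 in interleukin-35. It had 17.1, 16.8 and 14.9 CPM in wild-type and 15.6, 20.7 and 13.99 CPM in knockout replicates 1 to 3. The range of the knockout group enclosed that of the wild-type group, and the fold was 1.03 with a 95% interval from 0.768 to 1.39 (edgeR adjusted p = 0.94). That interval is the narrowest among the subunits. Its antisense neighbour Gm16712, which shares 270 exonic bases with it, had 0.993 ± 0.170 and 1.18 ± 0.838 CPM (SD, n = 3 each).

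**Figure D2:**
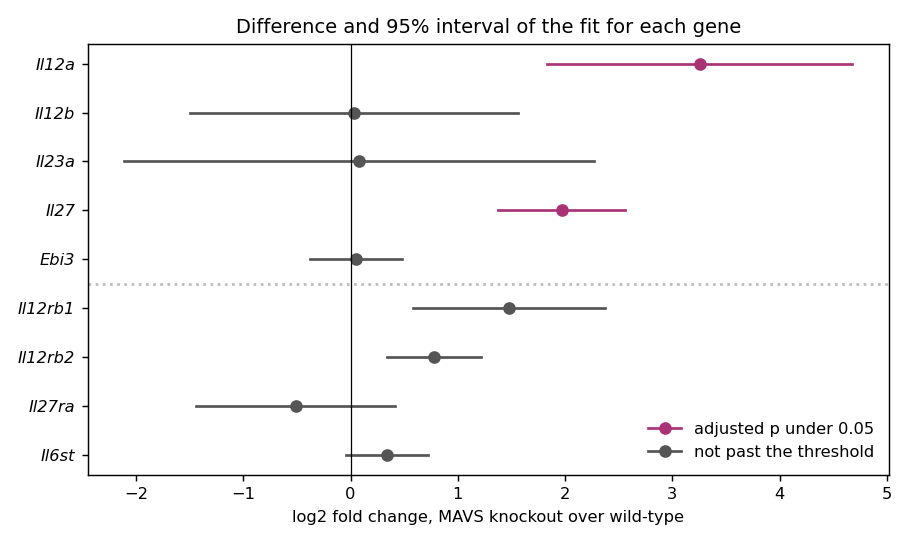
Log2 fold change of each gene (points, horizontal axis, MAVS knockout over wild-type) with the 95% interval derived from edgeR's F statistic (lines). Subunits are above the dotted line and receptor chains below. Il12a and Il27 passed the threshold, and the intervals of Il12rb1 and Il12rb2 also lie above 0 before adjustment.

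Levels of different genes were compared per kilobase of annotated exon. In wild-type libraries Ebi3 came first at 14.1 ± 1.02 CPM per kilobase (SD, n = 3), above the range of all other members. The order then ran Il27 (3.67), Il6st (3.30), Il27ra (2.41), Il12rb2 (2.31), Il12b (1.41), Il12rb1 (1.12), Il23a (0.552) and Il12a (0.228), and each gene from Il27 down overlapped its next neighbour in range. Il12a was the lowest of the 9. In knockout libraries Ebi3 (14.5 ± 3.04) and Il27 (14.4 ± 0.673, SD, n = 3 each) shared the top with overlapping ranges, and a gap separated Il27 from Il6st (4.17). Below it came Il12rb2 (3.96), Il12rb1 (3.11), Il12a (2.23), Il27ra (1.70), Il12b (1.44) and Il23a (0.583) CPM per kilobase, again with each neighbour overlapping the next. Annotated exons overstate the length of genes with several transcripts. With the longest transcript as the length, Il27 and Il6st, Il27ra and Il12rb2, and Il12b and Il12rb1 changed places in wild-type, and the knockout order stayed as given.

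The balance of chains within each library does not depend on library scaling. The ratio of Il12a to Il12b per kilobase was 0.469, 0.223 and 0.112 in wild-type and 1.08, 1.05 and 2.90 in knockout replicates 1 to 3. Transcripts of p40 thus exceeded those of p35 in the 3 wild-type libraries, and the 2 were near parity or reversed in the knockout libraries. The geometric mean moved from 0.227 to 1.49, or 6.55-fold (log2 difference 2.71; SD 1.04 in wild-type and 0.84 in knockout, n = 3 each; two-sided exact permutation p = 0.1, adjusted p = 0.2 over 6 ratios). With 3 against 3 libraries 0.1 is the smallest p that test can give, so no ratio could pass. Here the numerator and not the denominator had passed when tested alone.

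The ratio of Il27 to Ebi3 was 0.259, 0.171 and 0.369 in wild-type and 1.11, 0.765 and 1.19 in knockout replicates 1 to 3. The groups did not overlap, and the geometric mean went from 0.254 to 1.00 (3.96-fold, exact permutation p = 0.1, n = 3 each). Wild-type libraries therefore held more EBI3 than p28 transcript per kilobase, and knockout libraries about as much of each. The ratio of Il12a to Ebi3, the chains of interleukin-35, spanned 0.0119 to 0.0262 in the wild-type group and 0.0427 to 0.271 in the knockout group, likewise apart (7.96-fold, exact permutation p = 0.1, n = 3 each). For Il23a to Il12b the wild-type range was 0.328 to 0.599 and the knockout range 0.0144 to 1.69, which overlapped (exact permutation p = 0.7, n = 3 each). The lowest of these, in knockout replicate 3, rests on the 0.5 added to a count of 0 and is no measured ratio. A transcript ratio says nothing of how much of each chain was translated or secreted.

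**Figure D3:**
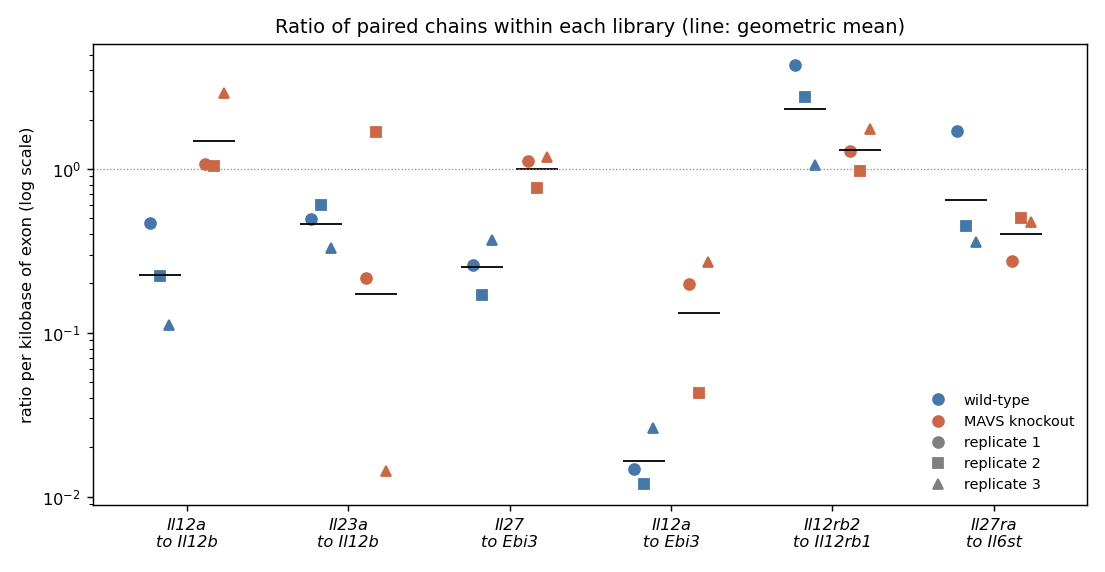
Ratio of the paired chains per kilobase of exon in each library (log axis), with lines at geometric means and symbols for replicate numbers; the dotted line marks equal amounts. Il12a to Il12b, Il27 to Ebi3 and Il12a to Ebi3 are higher in every knockout library than in any wild-type library, while the other 3 ratios overlap.

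Il12rb1 (ENSMUSG00000000791, chromosome 8, 70808449 to 70821424, plus strand) encodes the chain common to the receptors of interleukin-12 and interleukin-23. It had 2.56, 3.20 and 7.97 CPM in wild-type and 12.7, 16.2 and 9.45 CPM in knockout replicates 1 to 3. The groups did not overlap, though wild-type replicate 3 came close to knockout replicate 3. The fitted fold was 2.78 with a 95% interval from 1.49 to 5.17, which did not pass over all genes (edgeR adjusted p = 0.0918). Without wild-type replicate 3 it passed, at a log2 fold change of 2.15 (adjusted p = 0.0147), and it passed by the DESeq2 Wald test (adjusted p = 0.00641).

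Il12rb2 (ENSMUSG00000018341, chromosome 6, 67291318 to 67376188, minus strand) encodes the chain that recruits STAT4 in the interleukin-12 receptor and is best known on activated T cells and natural killer cells. It had 10.3, 8.22 and 7.74 CPM in wild-type and 15.2, 14.5 and 15.4 CPM in knockout replicates 1 to 3. The knockout libraries lay within 3.11% of each other as a coefficient of variation and apart from the wild-type range. The fold was 1.71 with a 95% interval from 1.27 to 2.32, and it did not pass (edgeR adjusted p = 0.0686) except by the DESeq2 Wald test (adjusted p = 0.014) and without the filter on low counts (adjusted p = 0.049). Il12rb2 shares 1519 exonic bases with Serbp1, an abundant gene on the opposite strand, so its level is uncertain where reads could be assigned to either. The log2 fold change of Serbp1 was -0.22 (189 to 162 CPM, SE 0.12, adjusted p = 0.407 by edgeR), with overlapping groups.

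Markers of the lymphocytes that carry this receptor are given beside it, and their part in the levels of Il12rb1 and Il12rb2 was not tested. T cell markers (9 genes) summed to 32.2 to 51.1 CPM in the wild-type group against 24.3 to 33.6 CPM in the knockout group, and natural killer cell markers (9 genes) to 89.0 to 149 against 91.2 to 137 CPM. Cd2 and Klrk1 were the most abundant genes of these lists. Without them the T cell list came to 11.5 to 17.7 against 10.8 to 21.1 CPM, and the natural killer cell list to 18.7 to 51.0 against 32.6 to 57.8 CPM. By edgeR none of 8 tested markers passed on either list. At an unadjusted p below 0.05, 0 were higher and 1 lower for T cells, and 1 higher and 1 lower for natural killer cells. Over all 12580 tested genes 1064 were higher and 945 lower at that level. No listed gene was at 0 throughout a group. The ratio of Il12rb2 to Il12rb1 spanned 1.05 to 4.32 in the wild-type group and 0.97 to 1.76 in the knockout group, which overlapped (exact permutation p = 0.3, n = 3 each).

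Il6st (ENSMUSG00000021756, chromosome 13, 112464070 to 112510086, plus strand) encodes gp130, the signalling chain of interleukin-27, interleukin-6 and their relatives. It had 27.8, 41.3 and 40.9 CPM in wild-type and 51.8, 42.5 and 44.7 CPM in knockout replicates 1 to 3. The groups did not overlap, but by a margin smaller than the spread within either, and the fold was 1.26 with a 95% interval from 0.972 to 1.65 (edgeR adjusted p = 0.381). Il27ra (ENSMUSG00000005465, chromosome 8, 84030294 to 84042589, minus strand) encodes the chain specific to the interleukin-27 receptor. It had 14.9, 5.82 and 4.61 CPM in wild-type and 4.44, 6.71 and 6.67 CPM in knockout replicates 1 to 3. Wild-type replicate 1 stood alone, and the other 5 libraries shared a range. Its log2 fold change, -0.51 with an SE of 0.42 (edgeR adjusted p = 0.631), became 0.18 without that library. The ratio of Il27ra to Il6st overlapped as well (exact permutation p = 0.6, n = 3 each).

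Lists of genes around the family were read from the same fit. Of 26 transcription factors known to act at the subunit genes, none passed in either direction by edgeR. At an unadjusted p below 0.05, 7 were higher and 3 lower, against 1064 higher and 945 lower over all 12580 tested genes. The list's median log2 fold change was 0.02. The smallest p value was that of Rel, the NF-kB subunit c-Rel that drives Il12a and Il12b in myeloid cells (162 to 116 CPM, log2 fold change -0.49, SE 0.13, edgeR adjusted p = 0.0757). Of 21 receptors and adaptors that induce the subunits 20 were tested, and 2 rose. Cd40, the receptor through which T cells license dendritic cells, went from 61.2 to 100 CPM (0.71, SE 0.15), and Tlr4, the endotoxin receptor, from 138 to 191 CPM (0.47, SE 0.10), both with an edgeR adjusted p = 0.0364. Their list had a median of 0.11.

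Among 18 genes that restrain subunit expression 2 rose as well, with a median of 0.06. Ptgs2, the cyclooxygenase that starts prostaglandin E2 synthesis, went from 328 to 593 CPM (0.85, SE 0.13, edgeR adjusted p = 0.0164). Cd200r1, an inhibitory myeloid receptor, went from 188 to 256 CPM (0.44, SE 0.10, adjusted p = 0.0394). Both inducing and restraining lists thus held 2 genes that rose and none that fell, where 1.76% of all tested genes rose.

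Behind the receptors, none of 11 tested kinases, STATs and inhibitors passed in either direction by edgeR, with 2 higher and 1 lower at an unadjusted p below 0.05 and a median of 0.19. Socs1, the feedback inhibitor of JAK kinases, came nearest, from 31.3 to 66.6 CPM (log2 fold change 1.09, SE 0.26, edgeR adjusted p = 0.054). Stat4, the main transducer of interleukin-12, was at 2.49 and 2.39 CPM, and Il23r, the private chain of the interleukin-23 receptor, had 9, 0 and 1 counts in wild-type replicates 1 to 3 and 0 in each knockout library, too few to be tested. Both were named after their values were seen. Of 13 other cytokines and receptors that use gp130, 8 were tested and none passed (1 higher and none lower at an unadjusted p below 0.05). Il6 went from 5.33 to 9.83 CPM (0.88, SE 0.27, adjusted p = 0.13) and the leukaemia inhibitory factor receptor Lifr from 24.1 to 19.2 CPM (-0.33, SE 0.24, adjusted p = 0.568).

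Of 12 lymphocyte genes downstream of interleukin-12, 9 were tested, with a median of 0.70. Of these 1 fell and none rose, where 1.05% of all tested genes fell and 1.76% rose. By edgeR 2 were higher and 1 lower at an unadjusted p below 0.05. Positive log2 fold changes were found for 7 and negative ones for 2. The gene that fell was Cxcr3, a chemokine receptor of type 1 lymphocytes, from 13.03 to 2.76 CPM (log2 fold change -2.25, SE 0.36, edgeR adjusted p = 0.0164). Which cells in these bulk libraries gave the transcripts of this list was not tested. Ifng, the cytokine that interleukin-12 elicits, was named after its value was seen. It stood at 0.899 ± 1.40 and 1.67 ± 1.03 CPM (SD, n = 3 each), an SD larger than the difference between the means.

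**Figure D4:**
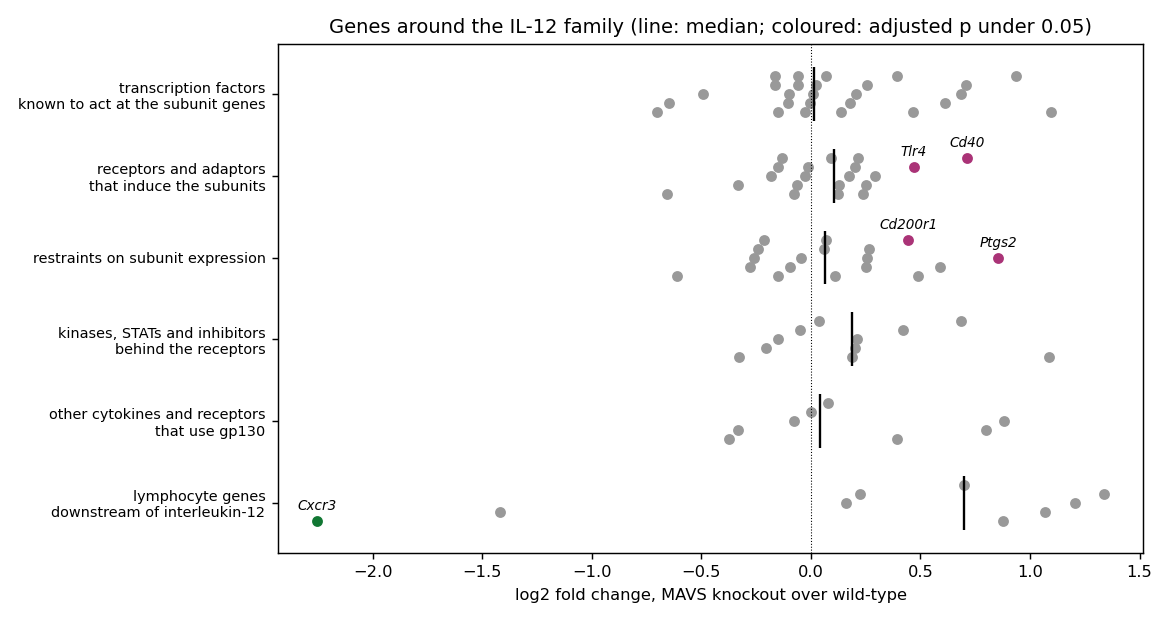
Log2 fold change (horizontal axis, MAVS knockout over wild-type) of each tested gene in 6 lists around the family, with a line at each list's median and coloured points for genes past the threshold. Cd40, Tlr4, Ptgs2 and Cd200r1 rose, Cxcr3 fell, and the medians lie between 0.02 and 0.70.

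Markers of the cells that make these cytokines were set beside Il12a and Il27. Summed markers of mature migratory dendritic cells (10 genes) came to 469 to 532 CPM in the wild-type group and 609 to 850 CPM in the knockout group. The groups did not overlap, and 3 of 9 tested rose, where 1.76% of all tested genes rose. The cDC1 and macrophage values are given above. Of 11 cDC1 markers 5 fell, where 1.05% of all tested genes fell. None of 10 macrophage markers passed by edgeR. At an unadjusted p below 0.05, 5 of them were higher and 1 lower, against 1064 higher and 945 lower over all 12580 tested genes. Monocyte markers (6 genes) summed to 1839 to 3170 and 4427 to 13680 CPM. Of the monocyte list Chil3 alone rose, and without it the sums overlapped, at 1304 to 1500 and 1190 to 1318 CPM. Markers of type 2 conventional dendritic cells (7 genes) summed to 2403 to 2683 and 2813 to 4483 CPM, with Sirpa higher (log2 fold change 0.56) and Cd209a lower (-1.86), both past the threshold. Mgl2 and Sirpa carried most of that sum. The groups stayed apart without Mgl2 and overlapped without both genes, at 322 to 368 and 303 to 359 CPM.

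Neutrophil markers (7 genes) came to 55.5 to 57.2 CPM in wild-type hosts against 93.0 to 98.7 CPM in knockout hosts. Mmp8 and Csf3r carried most of that sum. The groups stayed apart without Mmp8 and overlapped without both genes, at 6.17 to 10.7 against 9.10 to 12.7 CPM. S100a9, Retnlg and Ly6g had too few counts to be tested. Endothelial markers (5 genes) came to 49.6 to 97.7 against 118 to 222 CPM, a separation lost without Flt1. B cell markers were lower in knockout hosts, at 10.2 to 11.96 against 31.5 to 52.2 CPM. Plasmacytoid dendritic cell markers (6 genes) came to 105 to 132.4 against 132.5 to 151 CPM, apart by less than the spread within either group. Of these lists Mmp8 and Flt1 rose and Ighm fell. Fibroblast and tumour epithelial sums overlapped. Cdh1 carried most of the tumour epithelial sum. Without it that list came to 6.265 to 16.2 CPM in wild-type hosts and 5.34 to 7.91 CPM in knockout hosts, which also overlapped. The part of any of these cell types in the rise of Il12a and Il27 was not tested.

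Genes with the most similar pattern over the 6 libraries were found by Pearson's correlation of log2(CPM + 1) among protein-coding genes of at least 5 CPM on average. These correlations describe 6 libraries that share the group difference, and carry no p. Closest to Il12a were Dmxl1 (r = 0.986), Arl13b (0.981) and Guk1 (0.976), none of which passed by edgeR. Closest to Il27 were Ltb4r1 (0.997), a leukotriene B4 receptor that rose from between 239 and 270 CPM to between 343 and 362 CPM (log2 fold change 0.46, edgeR adjusted p = 0.0364), and Grhpr and Alpk2 (0.996 and 0.995). Closest to Il12b were Cyp4f13 (0.993), the lysosomal sphingolipid activator precursor Psap (0.986) and Pgs1 (0.979). Psap, like Il12b, was highest in wild-type replicate 3 and knockout replicate 1, at 7452 and 7587 CPM against 5276 to 6342 CPM in the other libraries. None of those 3 passed.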

How the data were processed

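RNA sequencing of tumour-infiltrating dendritic cells gave 3 wild-type and 3 MAVS knockout libraries, grouped by sample labels. The deposited values were raw read counts per Ensembl gene, made by the authors; the submitters' processing notes name HISAT2, HTSeq, DESeq2 and mm10 without settings. No source used here gives the annotation release or strand setting. Library totals are given with the results. Symbols, positions and exon lengths came from GENCODE M21 on GRCm38, which matched 26383 identifiers.

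Counts were tested with edgeR 4.0.16 (R 4.3.3): filterByExpr (minimum count 10, total 15), TMM scaling, the quasi-likelihood F test without covariates, and Benjamini-Hochberg adjustment over 12580 genes at 0.05. Its SE and intervals were derived from that test and are approximate. The SE was the size of the log2 fold change divided by the square root of the F statistic. Intervals used the t distribution with the test's degrees of freedom. Chain ratios used counts plus 0.5 per kilobase and an exact permutation test. The members, lists and alternatives were chosen with earlier results of these data known. Named were the 9 genes, Mavs, up to 4 passing members per list (otherwise the 2 smallest p values), and 3 genes most similar to Il12a, Il12b and Il27. One gene that the rule names is not reported here. Cell markers, overlapping neighbours, Stat4, Il23r and Ifng fall outside that rule. Alternatives used DESeq2 1.42.0 and limma 3.58.1 among others. The procedure was also run on counts simulated from edgeR's own model, with the means and dispersions of these data. That run could not test whether the model holds for these libraries. Marker sums without the most abundant genes of a list were added after seeing the data.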

Additional observations from a re-analysis of the deposited data

How the results depend on the processing

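Of 17 results under 211 alternative values, 169 were labelled as the same. For fold changes that meant direction and side of the threshold, for counts staying within 1.5 times, and for ratios direction alone. No ratio could pass. Leaving out the division by length or adding a replicate block cannot change the log2 difference of a ratio, so those values were fixed in advance. Il27 and Il6st kept direction and side of the threshold throughout. The 354 genes that passed became 924 without a filter and 778 by the DESeq2 Wald test, with 4 of the 9 genes passing in both. There Il12rb1 (1.47 in both, edgeR and DESeq2 adjusted p = 2.94e-05 and 0.00641) and Il12rb2 (0.78 and 0.77) joined Il12a and Il27. With a mean of at least 5 CPM 1 gene passed, Il12a, Il12b and Il23a not being tested. With limma-voom 1 passed (Il12a 3.01, adjusted p = 0.118, and Il23a -0.98). With library size alone Il12b, Il23a and Ebi3 were at -0.12, -0.084 and -0.12, the median of all genes then being -0.17. Leaving out 1 library gave 36 to 277 genes in all and 1 to 2 of the 9, with Il12a from 2.89 to 3.67, Il12b from -0.63 to 1.26, Il23a from -1.01 to 0.80, Ebi3 from -0.13 to 0.16, Il12rb1 from 1.17 to 2.15 and Il27ra from -0.81 to 0.18. The fewest genes passed without knockout replicates 1, 2 and 3 (39, 64 and 36), against 193 and 151 without wild-type replicates 1 and 2. The log2 differences of the ratios Il23a to Il12b and Il27ra to Il6st ranged from -3.05 to 0.39 and from -1.12 to 0.0038, reversing without knockout replicate 3 and wild-type replicate 1. Deviations of libraries of the same number had r of 0.0255, 0.119 and -0.0215 across genes, and those of different numbers -0.142 to 0.136. These values do not settle whether the numbers pair libraries. With a replicate block 414 genes and 2 of the 9 passed, and Il23a was at -0.090. With 3 libraries a group, low counts of Il12a and Il23a limit what can be said of either.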
